A study of Homo sapiens with 10 samples.

Results

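The genes described here are the G1 cyclins CCND1, CCND3, CCNE1 and CCNE2, their kinases CDK4, CDK6 and CDK2, and the pocket protein genes RB1, RBL1 and RBL2. They were chosen by name, as 10 of the 20030 rows of the deposited expression table, and all 10 were found in it. The series holds RNA-seq of 3 lines of human liver cancer, Huh7, PLC and 97H. PLC and 97H cells received a CDK4/6 inhibitor together with the XPO1 inhibitor KPT330 (the combination), KPT330 alone, the CDK4/6 inhibitor alone or vehicle (control), and Huh7 cells received the CDK4/6 inhibitor or vehicle. Each line and treatment has 1 library, 10 in all, which gives 2 libraries of the combination, 2 of the XPO1 inhibitor, 3 of the CDK4/6 inhibitor and 3 controls, so the replicate of a treatment is the cell line. The labels used here do not name the CDK4/6 inhibitor, its dose or the time of exposure.

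Passage through G1 depends on the products of these genes. Cyclins D1 and D3 (CCND1, CCND3) activate CDK4 and CDK6 in response to growth signals, and these kinases, which the first drug blocks, begin the phosphorylation of the pocket proteins RB1, p107 (RBL1) and p130 (RBL2). Pocket proteins hold E2F transcription factors in check, and E2F factors in turn raise cyclins E1 and E2 (CCNE1, CCNE2), which activate CDK2 and complete that phosphorylation before DNA synthesis. KPT330 (selinexor) blocks XPO1, a receptor that exports proteins and some RNAs through the nuclear pore.

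Levels are given in FPKM, the share of a library's fragments scaled to transcript length, so that genes of different length can be set side by side. By mean over the 10 libraries the order was CDK4 (161.8 FPKM), CCND1 (109), CCND3 (53.1), CDK2 (23.9), CCNE1 (14.1), RBL2 (5.28), RB1 (2.05), CDK6 (1.73), RBL1 (0.988) and CCNE2 (0.679). CDK4 and CCND1 lay above 96.8% and 94.8% of the 10477 genes whose mean was at least 1 FPKM, the genes that were tested. CDK6 lay above 10.6% of them and RB1 above 14.4%. RBL1 lay just under that limit and CCNE2 further under it, so 8 of the 10 genes were tested, and CDK6 is the lowest of those. Neighbours in this order overlapped across libraries throughout. CDK4, for instance, ranged from 78.7 to 225 FPKM and CCND1 from 38.6 to 257 FPKM. The lowest of this order, RBL2, RB1, CDK6, RBL1 and CCNE2, also have transcripts of low G and C content, given below. The part of that content in the levels was not tested. The third cyclin D gene, CCND2, was at or near 0, with at most 0.0265 FPKM. In bulk RNA fewer cells of a kind and less RNA per cell cannot be told apart.

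**Figure D1:**
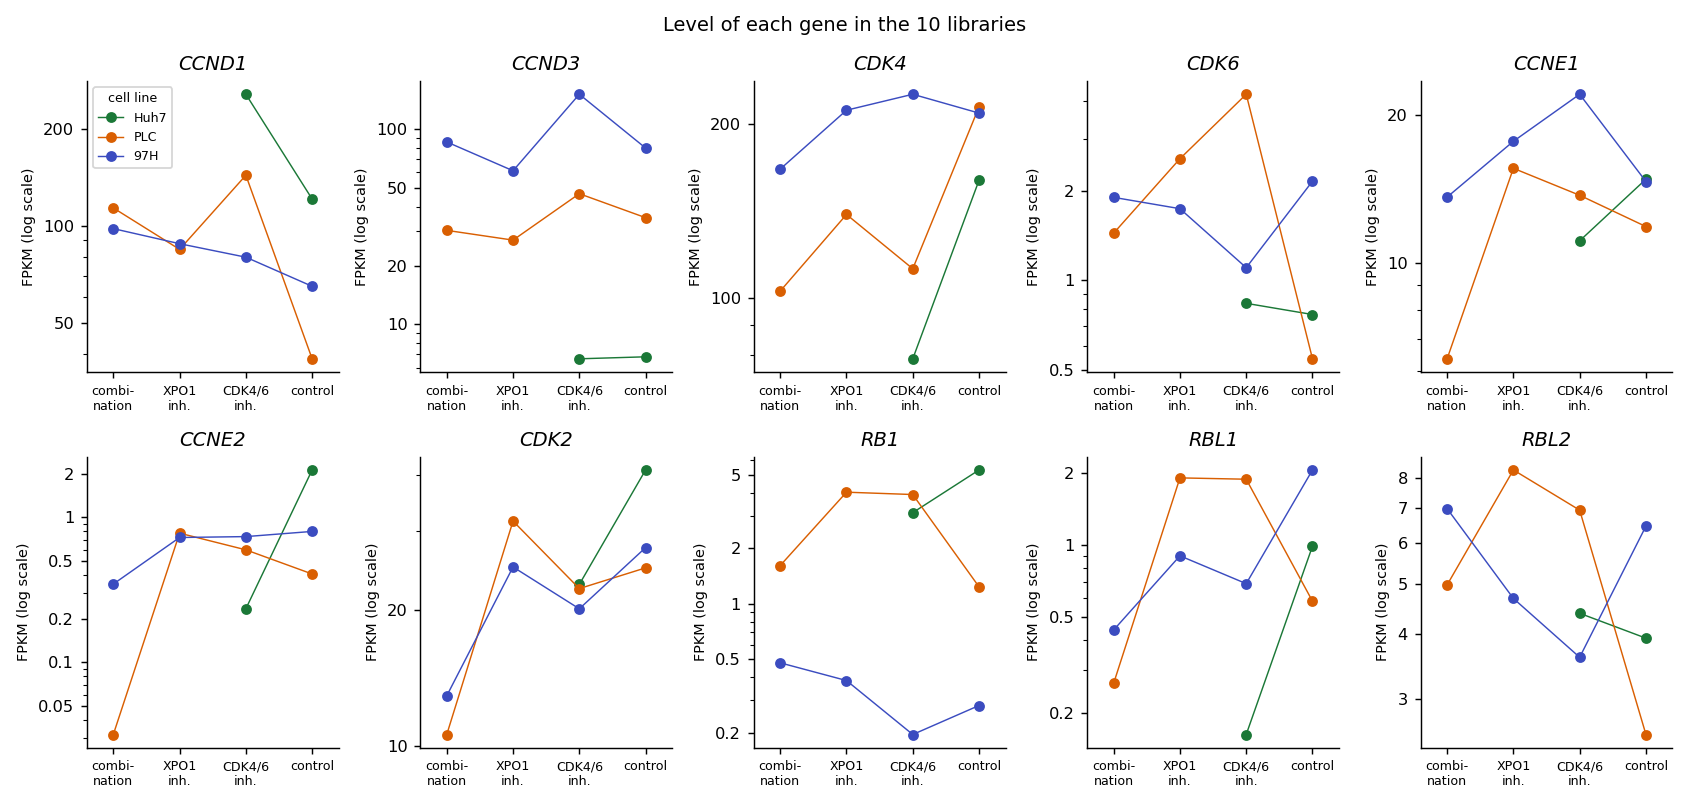
Level of each of the 10 genes in FPKM (log axis, different range in each panel) by treatment, with 1 point per library and 1 colour per cell line. Lines join libraries of the same cell line. CCND3 separates the lines present at every treatment, RB1 lies under 0.5 FPKM in all 4 libraries of 97H, and CDK2 is lowest with the combination in both PLC and 97H.

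All 7 hepatocyte and liver cancer markers examined (ALB, AFP, APOA1, TTR, SERPINA1, KRT8 and KRT18) were above 0 in every library, with a summed level of 2911 to 11855 FPKM. In 97H the secreted liver proteins were low, ALB at 2.32 to 15.8 FPKM, and KRT8 and KRT18 were the 2 highest of the 7 in every library of that line. ALB was at 3.29 to 9.74 FPKM in PLC and at 1062 and 1261 FPKM in the CDK4/6 inhibitor and control libraries of Huh7. Of 11 markers of other cells, the leukocyte genes PTPRC and CD3E had at most 0.0226 and 0.0350 FPKM in any library. CD68, also counted as an immune marker, ran from 2.77 FPKM in the Huh7 control to 127 FPKM in the PLC combination library. KRT19 stood at 404 to 634 FPKM in 97H, and at 529 and 429 FPKM in the CDK4/6 inhibitor and control libraries of Huh7. COL1A2 and LUM reached 77.8 and 40.8 FPKM in the CDK4/6 inhibitor library of Huh7. The summed level of these 11 markers was 128 FPKM in the PLC combination library and 23.6 FPKM in the PLC control, and 782 FPKM with the combination and 539.8 FPKM in the control of 97H. With the CDK4/6 inhibitor it was 660 FPKM in Huh7, 65.7 FPKM in PLC and 694 FPKM in 97H, against 460 FPKM in the Huh7 control and the controls given above. Its part in the results below was not tested.

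CCND1 (cyclin D1, chromosome 11, 69641087 to 69654474 in GRCh38) was higher than in the control of the same line in all 7 drug libraries. In PLC it stood at 114 FPKM with the combination, 84.4 FPKM with the XPO1 inhibitor and 144 FPKM with the CDK4/6 inhibitor, against 38.6 FPKM in the control. In 97H the values were 98.0, 87.9 and 79.8 FPKM in that order of treatments, against 64.8 FPKM in the control. In Huh7 it had 257 FPKM with the CDK4/6 inhibitor and 121 FPKM in the control. The ratio to control was 3.73 in PLC, 2.12 in Huh7 and 1.23 in 97H for the CDK4/6 inhibitor, and 2.95 in PLC and 1.51 in 97H for the combination.

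Differences were tested with limma on log2(FPKM + 1) with the cell line in the model, and p-values were adjusted over all 10477 tested genes. The labels do not say that cultures were repeated. The p-values thus set a mean difference against how unevenly these lines responded, pooled over the treatments, and not against a spread between repeated cultures. For CCND1 the difference of the combination from control was 1.06 on this scale (SE 0.36, limma adjusted p = 0.263, 2 of 2 lines higher). It was 1.08 for the CDK4/6 inhibitor (SE 0.28, limma adjusted p = 0.461, 3 of 3 lines higher) and 0.77 for the XPO1 inhibitor (SE 0.36, limma adjusted p = 0.968, 2 of 2 lines higher). None passed the threshold of 0.05, and the 95% intervals were 0.24 to 1.89, 0.47 to 1.70 and -0.05 to 1.60. Without the PLC control library the difference was 0.53 for the combination and 0.24 for the XPO1 inhibitor, and without the 97H control library 1.59 and 1.31. The groups overlapped across lines, since the Huh7 control had more CCND1 than any XPO1 inhibitor or combination library.

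CCND3 (cyclin D3, chromosome 6, 41934933 to 42050357) separated the 3 lines. It had 61.2 to 151 FPKM in 97H, 27.0 to 46.7 FPKM in PLC, and 6.65 and 6.81 FPKM in Huh7, and no library of one line reached the range of another. The highest library of both 97H and PLC was that of the CDK4/6 inhibitor, with 151 FPKM in 97H against 80.0 FPKM in its control and 46.7 FPKM in PLC against 35.2 FPKM in its control. Huh7 had 6.65 FPKM with the CDK4/6 inhibitor and 6.81 FPKM in its control. The difference was 0.43 for the CDK4/6 inhibitor (95% interval -0.10 to 0.96) and -0.05 for the combination (-0.68 to 0.57). Set against the CDK4/6 inhibitor alone, the combination was at -0.71 (SE 0.28, unadjusted p = 0.0314 and adjusted p = 1 by limma), lower in 2 of 2 lines.

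The make-up of cyclin D transcripts thus differed by line and library. CCND1 made up 97.5% and 94.7% of the summed CCND1 and CCND3 FPKM in the CDK4/6 inhibitor and control libraries of Huh7. In PLC its share was 78.9% with the combination, 75.8% with the XPO1 inhibitor and 75.5% with the CDK4/6 inhibitor, against 52.3% in the control. In 97H the shares were 53.3%, 59.0% and 34.6% in that order, against 44.7% in the control. The 3 drug libraries of PLC were thus all above their control, while those of 97H lay on both sides of theirs. With 1 library for each line and treatment these shares carry no test.

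**Figure D2:**
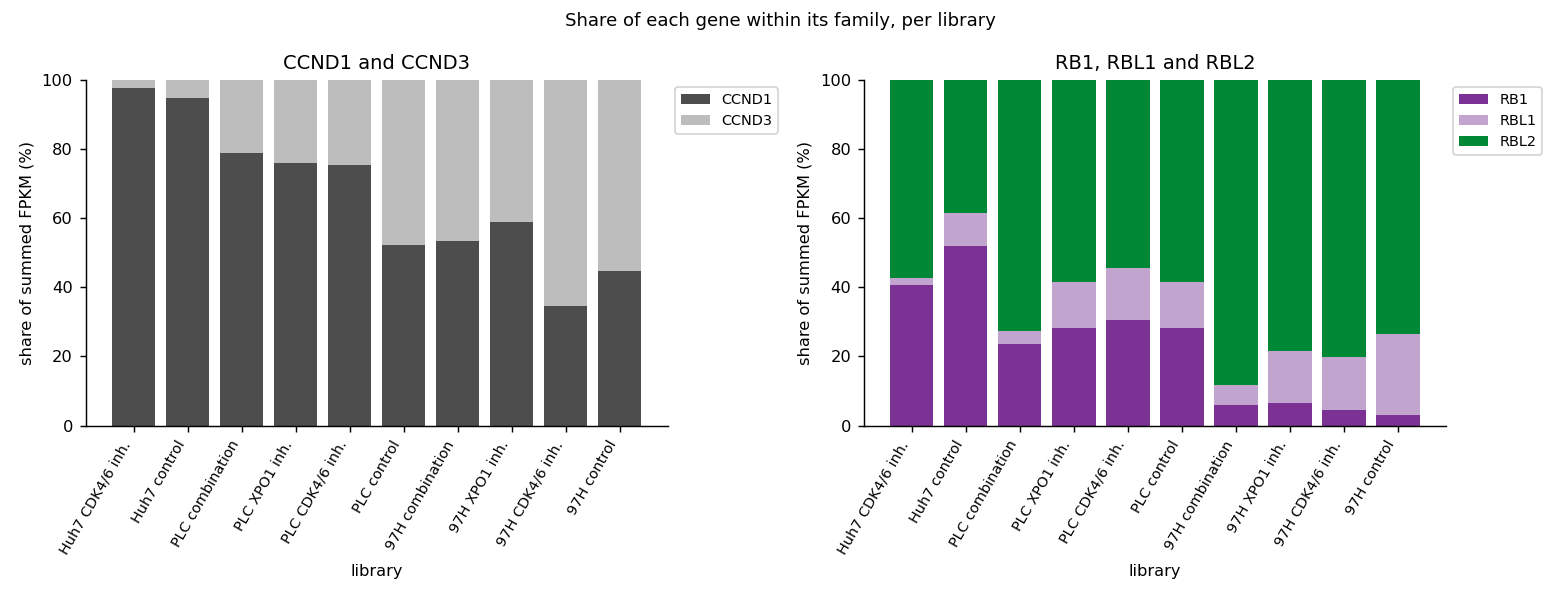
Share of each gene in the summed FPKM of its family, in percent, for the cyclin D genes (left) and the pocket protein genes (right), with 1 bar per library grouped by cell line. CCND1 makes up 97.5% and 94.7% of the bar in Huh7 (CDK4/6 inhibitor and control) and 34.6% to 59.0% in 97H, and RB1 makes up 3.20% to 6.43% of the pocket protein bar in 97H.

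CDK4, the more abundant of the cyclin D kinases, had 103 FPKM with the combination, 139.5 FPKM with the XPO1 inhibitor and 113 FPKM with the CDK4/6 inhibitor in PLC, against 214 FPKM in the control. In Huh7 it had 78.7 FPKM with the CDK4/6 inhibitor and 159.8 FPKM in the control. 97H had 167 FPKM with the combination, 211 FPKM with the XPO1 inhibitor and 225 FPKM with the CDK4/6 inhibitor, against 208 FPKM in the control. The ratio to control was 0.482 with the combination and 0.527 with the CDK4/6 inhibitor in PLC, 0.493 with the CDK4/6 inhibitor in Huh7, and 0.801 with the combination and 1.08 with the CDK4/6 inhibitor in 97H. The drug libraries of PLC and Huh7 were thus all below their control, and those of 97H lay on both sides. After removal of trends with G and C content and length, described below for the other genes, the CDK4 values in 97H were -0.32 with the combination, -0.10 with the XPO1 inhibitor and -0.09 with the CDK4/6 inhibitor, all below control. Those in PLC were -0.79, -0.29 and -0.52 in that order, against -1.05, -0.61 and -0.92 before. The difference of the combination from control was -0.68 (SE 0.30, unadjusted p = 0.0473 and adjusted p = 0.390 by limma, lower in 2 of 2 lines), or -0.29 without the PLC control library and -1.08 without the 97H control library. That of the CDK4/6 inhibitor was -0.61 (SE 0.24, unadjusted p = 0.0301 and adjusted p = 0.528 by limma, lower in 2 of 3 lines). Neither passed.

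The CDK4 promoter is shown because CDK4 had the highest level of the 10 genes. The window runs from 250 bases before to 50 bases after the RefSeq start of the gene, at chr12:57752261-57752560 on the minus strand of GRCh38.p14. Capitals mark the GC box word GGGCGG on either strand, the core to which SP1-family factors bind, of which it holds 3. Of 35116 such windows in the table, 45% hold that word.
CDK4: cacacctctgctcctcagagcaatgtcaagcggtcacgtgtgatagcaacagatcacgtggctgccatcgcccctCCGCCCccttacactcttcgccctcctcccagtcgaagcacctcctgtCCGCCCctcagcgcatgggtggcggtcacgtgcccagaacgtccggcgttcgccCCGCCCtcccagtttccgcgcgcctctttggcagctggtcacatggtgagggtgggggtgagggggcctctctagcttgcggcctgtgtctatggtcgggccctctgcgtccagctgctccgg

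CDK6, the other cyclin D kinase (chromosome 7, 92604921 to 92836594), was low throughout and lay above control in PLC and below it in 97H in all 3 drug libraries of each. PLC had 1.44 FPKM with the combination, 2.57 FPKM with the XPO1 inhibitor and 4.23 FPKM with the CDK4/6 inhibitor, against 0.544 FPKM in the control. In 97H it had 1.90, 1.74 and 1.10 FPKM in the same order, against 2.15 FPKM in the control. Huh7 had 0.836 FPKM with the CDK4/6 inhibitor and 0.766 FPKM in the control. The mean difference of the CDK4/6 inhibitor was 0.41 with an interval of -0.46 to 1.28, and CDK6 contributed 0.254% to 3.62% of the summed CDK4 and CDK6 FPKM.

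RB1, the retinoblastoma gene (chromosome 13, 48303726 to 48599436), was low in 97H whatever the treatment. There it had 0.479 FPKM with the combination, 0.384 FPKM with the XPO1 inhibitor and 0.196 FPKM with the CDK4/6 inhibitor, against 0.281 FPKM in the control. PLC had 1.61, 4.02 and 3.90 FPKM in that order, against 1.24 FPKM in the control, and Huh7 had 3.11 FPKM with the CDK4/6 inhibitor and 5.30 FPKM in the control. Every library of PLC and Huh7 was thus above every library of 97H. The treatment differences of RB1 ran from 0.14 for the CDK4/6 inhibitor (95% interval -0.63 to 0.90) to 0.64 for the XPO1 inhibitor (-0.20 to 1.48), none passing. The XPO1 inhibitor value was 0.25 without the PLC control library, 0.32 without the PLC XPO1 inhibitor library, 0.96 without that of 97H and 1.02 without the 97H control.

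RBL2 (p130, the pocket protein of resting cells, chromosome 16, 53433977 to 53491649) was the most abundant of the family in 9 of 10 libraries, the Huh7 control being the exception. It had 4.97 FPKM with the combination, 8.30 FPKM with the XPO1 inhibitor and 6.94 FPKM with the CDK4/6 inhibitor in PLC, against 2.56 FPKM in the control. In 97H it had 6.98, 4.68 and 3.60 FPKM, against 6.46 FPKM in the control, so that the same single drugs went with higher values in PLC and lower values in 97H. Huh7 had 4.38 FPKM with the CDK4/6 inhibitor and 3.92 FPKM in the control. No treatment difference of RBL2 passed, the values being 0.42 for the combination, 0.50 for the XPO1 inhibitor and 0.20 for the CDK4/6 inhibitor.

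RBL1 (p107, the pocket protein of cycling cells, itself an E2F target gene, chromosome 20, 36996349 to 37095995) was below its control with the combination in both lines. With the combination it had 0.265 FPKM in PLC against 0.583 FPKM in the control, and 0.442 FPKM in 97H against 2.06 FPKM in the control. The XPO1 inhibitor gave 1.91 FPKM in PLC and 0.902 FPKM in 97H, and the CDK4/6 inhibitor 1.88 FPKM in PLC and 0.690 FPKM in 97H. Huh7 had 0.162 FPKM with the CDK4/6 inhibitor against 0.989 FPKM in the control. In a fit with no filter on low values the combination differed from control by -0.70 (SE 0.46, limma adjusted p = 0.685), which did not pass.

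Among the 11 windows searched, which cover 7 of the 10 genes, only that of RBL1 holds an E2F word. The remaining genes, named under data processing, were not searched, so nothing follows for an E2F word at their starts. The only RB1 window lies inside the gene, away from its first base. The start of RB1 was thus not searched, and nothing follows for an E2F word there. The words searched on both strands were TTTCCCGC, TTTCGCGC, TTTGCCGC and TTTGGCGC, and 3.31% of the 35116 windows hold at least 1. In RBL1 there are 2, both on the gene's strand, beginning 26 and 16 bases before the start and marked in capitals in the window at chr20:37095948-37096247 (minus strand, GRCh38.p14, from RefSeq).
RBL1: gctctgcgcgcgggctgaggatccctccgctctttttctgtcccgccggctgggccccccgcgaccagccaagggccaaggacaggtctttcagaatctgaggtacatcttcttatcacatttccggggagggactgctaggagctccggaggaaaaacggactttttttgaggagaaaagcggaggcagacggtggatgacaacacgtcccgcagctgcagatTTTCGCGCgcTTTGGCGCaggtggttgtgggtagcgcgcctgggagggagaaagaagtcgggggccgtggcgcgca
The windows differ in base composition, from 38.3% to 81.0% G and C, and a word match describes letters and no binding.

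CDK6, RB1, RBL1, RBL2 and CCNE2 have transcripts of low G and C content, 36.9% to 43.2%, against a median of 49.6% over the tested genes, while the other 5 genes lie at 50.3% to 56.2%. Across 10437 tested genes with a known sequence, the difference from control followed G and C content within libraries, with a Spearman rho of -0.709 in PLC cells given the XPO1 inhibitor and -0.667 in those given the CDK4/6 inhibitor. In 97H the rho was 0.464 and 0.720 for the same drugs, and for the combination it was -0.284 in PLC and 0.255 in 97H. The trends were removed only among tested genes, so RBL1 and CCNE2 have no value after removal. After removal of the trends with G and C content and length, the difference of the CDK4/6 inhibitor from control in PLC was 1.02 for CDK6, 0.48 for RB1 and 0.53 for RBL2, against 1.76, 1.13 and 1.16 before. In 97H, removal left -0.16 for CDK6 with this drug, and 0.03 (XPO1 inhibitor) and 0.06 (combination), so that CDK6 was then no longer below control with these 2 treatments. For the CDK4/6 inhibitor in 97H it left -0.30 for RBL2, against -0.70 before (CDK6 was at -0.59 before), and RB1 was at 0.37 after and -0.10 before. The XPO1 inhibitor value of RB1 in PLC was 0.56 after and 1.17 before. CCND3 in PLC turned round, being at 0.12 after and -0.21 before with the combination and at 0.13 after and -0.37 before with the XPO1 inhibitor, and it was at 0.94 after and 0.40 before with the CDK4/6 inhibitor. CDK2 with the CDK4/6 inhibitor in PLC was at 0.07 after and -0.15 before. CDK2 with the combination was at -1.09 after and -1.16 before in PLC and at -0.96 after and -1.04 before in 97H. CCND1 stayed above control in all 7 drug libraries, with 1.89 after and 1.87 before in PLC, 0.94 after and 1.08 before in Huh7 and 0.23 after and 0.30 before in 97H for the CDK4/6 inhibitor.

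CCNE1 (cyclin E1, chromosome 19, 29811898 to 29824308) had its lowest value with the combination in PLC, 6.37 FPKM, against 15.6 FPKM with the XPO1 inhibitor, 13.7 FPKM with the CDK4/6 inhibitor and 11.8 FPKM in the control. In 97H it had 13.6 FPKM with the combination, 17.7 FPKM with the XPO1 inhibitor and 22.0 FPKM with the CDK4/6 inhibitor, against 14.6 FPKM in the control. Huh7 had 11.1 FPKM with the CDK4/6 inhibitor and 14.8 FPKM in the control. The combination was below each single drug in both lines, by -0.83 against the CDK4/6 inhibitor (unadjusted p = 0.0444, adjusted p = 1 by limma; -0.52 without the PLC combination library) and -0.76 against the XPO1 inhibitor (unadjusted p = 0.0601, adjusted p = 1 by limma; -0.45 without the PLC combination library). Measured against the added effects of both single drugs, it departed by -1.14 (SE 0.50, unadjusted p = 0.0491, adjusted p = 1 by limma). Against control the combination was at -0.45 (95% interval -1.25 to 0.35), at -0.14 without the PLC combination library, -0.76 without that of 97H and -0.29 without the PLC control.

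The CCNE1 promoter is set beside that of RBL1 because both genes are known E2F targets. Its window, chr19:29811741-29812040 on the plus strand of GRCh38.p14, holds none of the 4 E2F words and 7 GC boxes, shown in capitals.
CCNE1: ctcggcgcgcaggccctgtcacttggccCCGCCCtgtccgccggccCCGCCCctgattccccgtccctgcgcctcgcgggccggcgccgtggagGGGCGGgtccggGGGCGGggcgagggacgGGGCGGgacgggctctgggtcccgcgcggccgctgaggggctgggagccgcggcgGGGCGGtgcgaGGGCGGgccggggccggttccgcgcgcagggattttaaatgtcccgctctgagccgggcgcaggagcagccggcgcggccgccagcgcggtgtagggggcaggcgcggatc

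CCNE2 (cyclin E2, on chromosome 8) was low, with at most 12.6% of the summed cyclin E FPKM. It had 0.0318 FPKM with the combination in PLC against 0.407 FPKM in the control, and 0.347 FPKM in 97H against 0.801 FPKM in the control. The single drugs gave 0.779 FPKM (XPO1 inhibitor) and 0.598 FPKM (CDK4/6 inhibitor) in PLC, and 0.727 and 0.737 FPKM in 97H. In Huh7 it had 0.234 FPKM with the CDK4/6 inhibitor and 2.12 FPKM in the control, the highest value of all. The combination libraries thus had the lowest value of each line, and with no filter on low values their difference from control was -0.43 (SE 0.14, limma adjusted p = 0.477).

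CDK2, the kinase of cyclin E (chromosome 12, 55966769 to 55972784), had 10.6 and 12.9 FPKM with the combination in PLC and 97H, below all 8 other libraries. PLC had 31.6 FPKM with the XPO1 inhibitor and 22.4 FPKM with the CDK4/6 inhibitor, against 24.9 FPKM in the control. 97H had 25 and 20.2 FPKM with these drugs, against 27.6 FPKM in the control, and Huh7 had 22.9 FPKM with the CDK4/6 inhibitor against 41.1 FPKM in the control. The ratio of the combination to control was 0.425 in PLC and 0.468 in 97H. On the log2 scale that difference was -1.10 (SE 0.32, unadjusted p = 0.00697 and adjusted p = 0.186 by limma, lower in 2 of 2 lines), and it did not pass. Against the XPO1 inhibitor the combination was at -1.20 (SE 0.32, limma adjusted p = 0.506) and against the CDK4/6 inhibitor at -0.81 (SE 0.32, limma adjusted p = 1), each lower in 2 of 2 lines.

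**Figure D3:**
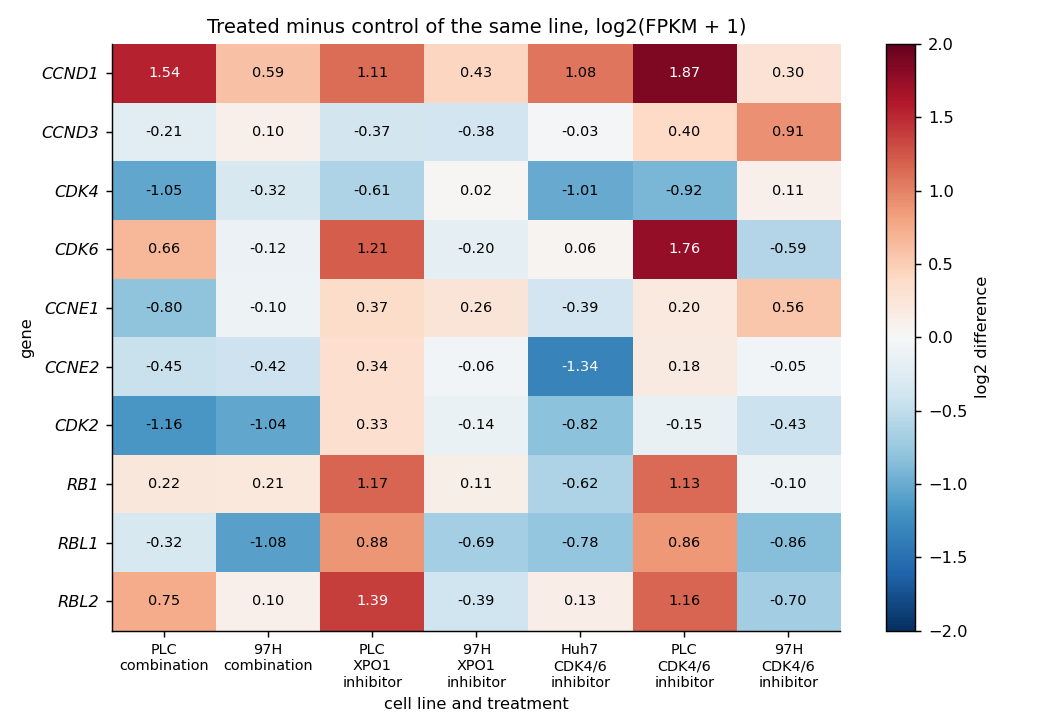
Difference of each drug library from the control of the same line on the log2(FPKM + 1) scale, for the 10 genes (rows) and 7 drug libraries (columns), red above and blue below control. The CCND1 row is red in all 7 columns, CDK2 is at -1.16 and -1.04 in the combination columns, and CDK6 is red in the PLC columns and blue in the 97H columns.

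None of the 8 tested genes passed in any comparison of treatments by limma, and neither did RBL1 or CCNE2 in the fit with no filter. The background share of called genes was 0.792% of 10477 for the combination against control (83 genes, 0.305% higher and 0.487% lower) and 0% for the CDK4/6 inhibitor against control and for the XPO1 inhibitor against control. It was also 0% for the combination against each single drug and for the departure from additivity. At an unadjusted p under 0.05, 3 of the 8 tested genes stood out with the combination against control, where the background was 12.4%. They were CCND1, higher (6.35% of all tested genes), and CDK2 and CDK4, lower (6.07%). With the CDK4/6 inhibitor there were 2 of 8, against a background of 8.80%, CCND1 being higher (4.57%) and CDK4 lower (4.23%), and with the XPO1 inhibitor 0 of 8, against 2.46%. For the combination against the CDK4/6 inhibitor there were 3, CCND3, CCNE1 and CDK2, all lower (1.99% lower, 3.29% in either direction). Against the XPO1 inhibitor there was 1, CDK2, lower (2.81% lower, 4.96% in either direction), and for the departure from additivity 1, CCNE1, lower (0.515% lower, 0.573% in either direction). These comparisons share libraries and are not independent of each other. The median difference of the 8 genes was 0.08 for the combination against control, against 0.07 over all tested genes.

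**Figure D4:**
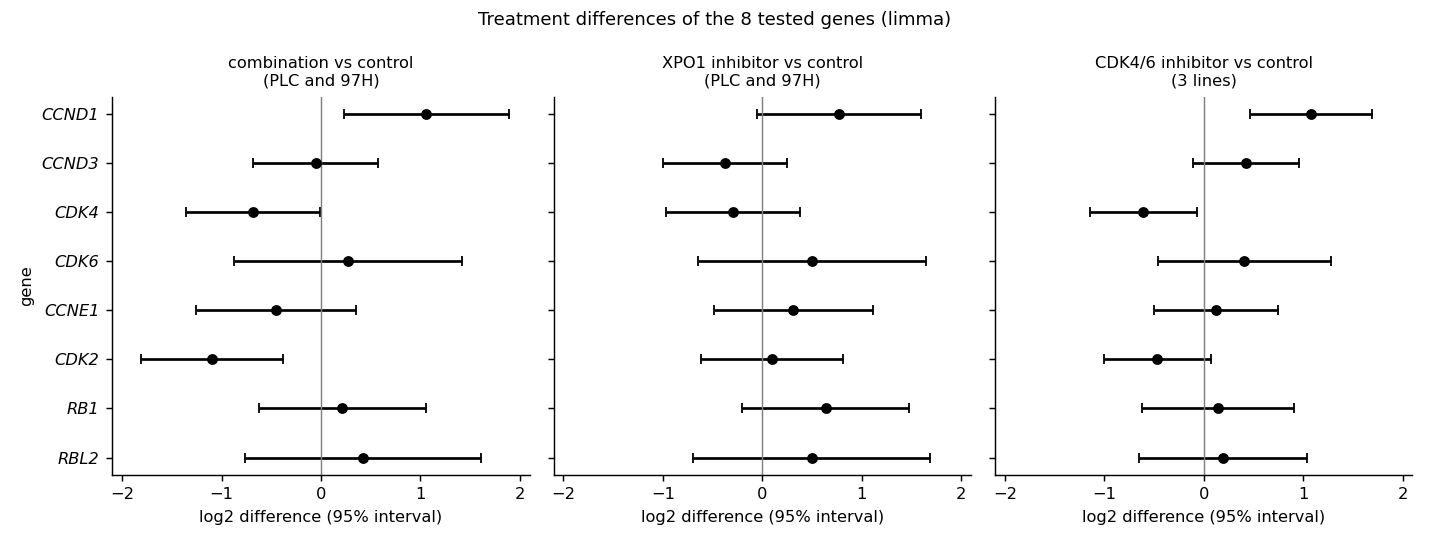
Difference from control with its 95% interval (limma) on the log2(FPKM + 1) scale for the 8 tested genes, with the combination (left), the XPO1 inhibitor (middle) and the CDK4/6 inhibitor (right). The intervals of CCND1, CDK2 and CDK4 lie on one side of 0 with the combination, and none of these genes passes after adjustment over all genes.

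Between lines CCND3, RB1, CCND1 and CDK4 passed in at least 1 comparison, and CDK2, CDK6, RBL2 and CCNE1 in none. CCND3 was lower in Huh7 than in PLC by -2.45 (SE 0.27, limma adjusted p = 0.000118) and than in 97H by -3.82 (SE 0.27, limma adjusted p = 5.24e-06), and lower in PLC than in 97H by -1.37 (SE 0.20, limma adjusted p = 0.000538). RB1 was higher in PLC than in 97H by 1.38 (SE 0.26, limma adjusted p = 0.00267) and higher in Huh7 than in 97H by 2.02 (SE 0.39, limma adjusted p = 0.00302). CCND1 was higher in Huh7 than in PLC by 1.22 (SE 0.32, limma adjusted p = 0.0158) and than in 97H by 1.29 (SE 0.32, limma adjusted p = 0.0104). CDK4 was lower in Huh7 than in 97H by -0.98 (SE 0.28, limma adjusted p = 0.0198).

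In all, 2 of 8 genes passed for PLC against 97H, where the background was 44.3% of tested genes, 2 of 8 for Huh7 against PLC (28.3%) and 4 of 8 for Huh7 against 97H (35.2%). These tests treat libraries of a line under different treatments as its replicates, so they describe these cultures and not a population of lines. The Huh7 calls rest on 2 libraries. Without the Huh7 control library CCND1 no longer passed against PLC (limma adjusted p = 0.130) or 97H (0.10), nor did CDK4 (0.0505) or RB1 (0.0740) against 97H. Without the Huh7 CDK4/6 inhibitor library CCND1 no longer passed against PLC (0.142) or 97H (0.0984), nor did CDK4 (0.267), and without the 97H CDK4/6 inhibitor library CCND1 (0.0639) and CDK4 (0.120) no longer passed for Huh7 against 97H. The calls of CCND3 and of RB1 for PLC against 97H held without each library in turn. Median ratio scaling moved the median of all genes for PLC against 97H to 0.02 from 0.26, and for Huh7 against 97H to 0.01 from 0.18. With that scaling CDK4 (-0.86, limma adjusted p = 0.0262) and CCNE1 (-0.80, limma adjusted p = 0.0421) passed as well, both lower in PLC.

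The genes most like each of the 10 were sought by Pearson r over the 10 libraries of log2(FPKM + 1), centred within each line. These libraries share 3 controls and 3 lines, so the values are a description with no test. CDK2 was followed most closely by WDR76, RFC5 and PCNA, the sliding clamp of DNA replication, with r of 0.989, 0.988 and 0.987. RBL1 went with DCK (deoxycytidine kinase, 0.987), BARD1 (the partner of BRCA1, 0.985) and ANLN (anillin, 0.981), and CCNE2 with E2F7 (an E2F repressor, 0.954), PSIP1 (0.951) and DUT (dUTPase, 0.947). CCND1 went with PXDC1 (0.995), GADD45A (a DNA damage-inducible gene, 0.991) and MANBA (a lysosomal mannosidase, 0.982). CDK4 was matched by PSMB6 (a proteasome subunit, 0.989), NDUFS6 (a subunit of respiratory complex I, 0.989) and YJU2 (a splicing factor, 0.988). CCNE1 and CCND3 had no gene over 0.885 (NAA11) and 0.940 (GCKR).

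CDK6 went with APOOL (0.992), WDFY1 (0.991) and PIKFYVE (0.991), RB1 with PHF3 (0.982), ZDHHC23 (0.977) and BNIP2 (0.971), and RBL2 with GFM2 (0.991), RAI14 (0.987) and MED23 (0.986). Among the 10 genes themselves the largest positive r were 0.867 for CDK6 with RBL2, 0.822 for CCNE2 with CDK2, 0.817 for CDK6 with RB1 and 0.811 for RBL1 with CDK2. The most negative was -0.922 for CDK4 with CCND1. All these r were taken without removal of the trends with G and C content and length, and CDK6, RB1 and RBL2 all have transcripts of low G and C content. The part of those trends in the r was not tested.

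The other genes of the pathway were counted for the combination against control. Of 18 S phase genes driven by E2F, 11 passed as lower and 0 as higher, against 0.487% and 0.305% of all tested genes. The list had a median of -1.99, against 0.07 over all tested genes. The 11 are RRM2 (-3.52, limma adjusted p = 0.0198), TYMS (-3.30), CCNA2 (-3.02), CDT1 (-2.77), CDC45 (-2.46), PCNA (-2.24), ORC1 (-2.19), TK1 (-2.16), MCM7 (-2.08), MCM4 (-1.89) and MCM2 (-1.76). Within lines that list had a median of -2.19 in PLC, -1.80 in 97H with the combination, and -1.53 in Huh7, -0.38 in PLC and -0.61 in 97H with the CDK4/6 inhibitor. The same median stood at 0.09 in PLC and -0.43 in 97H after KPT330 alone. The calls rest on few libraries: limma called 83 genes in all, but 0 when the control or the combination library of PLC was left out or with no cell line in the model, and 2 when the combination library of 97H was left out. Neither single drug gave a called gene among all 10477 tested genes, so there could be none in these lists. At an unadjusted p under 0.05 by limma, 10 of the 18 S phase genes were lower with the CDK4/6 inhibitor, against 4.23% of all tested genes. With the XPO1 inhibitor there were 0 of 18, against 2.46% in either direction.

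Of 7 genes of the INK4 and CIP/KIP inhibitors, which bind and block these kinases, 1 passed as higher and 1 as lower with the combination. For this and the next lists the background was 0.305% of all tested genes higher and 0.487% lower. A gene that did not pass is not thereby shown to be unchanged. CDKN1A (p21) rose by 2.19 (limma adjusted p = 0.0461), with 39.4 FPKM in PLC and 71.3 FPKM in 97H against 4.19 and 26.0 FPKM in their controls. CDKN2C (p18) fell by 2.68 (limma adjusted p = 0.0345), with 4.28 FPKM in PLC and 0.661 FPKM in 97H against 22.5 and 14.3 FPKM in their controls. Of 10 E2F and DP factors, only E2F2 passed, falling by 2.14 (limma adjusted p = 0.0435), and the list had a median of -0.74. Of 8 tested relatives outside the 10 genes, the mitotic cyclins CCNB1 and CCNB2 fell by 2.22 and 2.44 (limma adjusted p = 0.0321 for both).

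None of 14 tested genes of CDK activation and of cyclin and inhibitor turnover passed by limma, with 3 at an unadjusted p under 0.05 against a background of 12.4%. The smallest p was that of CDC25A (-1.98, limma adjusted p = 0.0634), the phosphatase that activates CDK2, followed by PKMYT1 (-1.70), an inhibitory kinase of CDK1, and CKS2 (-1.03), a CDK-binding subunit. None of 9 tested genes of the MuvB core and of chromatin partners of pocket proteins passed either, 1 of them at an unadjusted p under 0.05. DYRK1B was at 1.28, LIN37 at 0.83 and RBBP4 at 0.48, the 3 smallest p of that list.

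**Figure D5:**
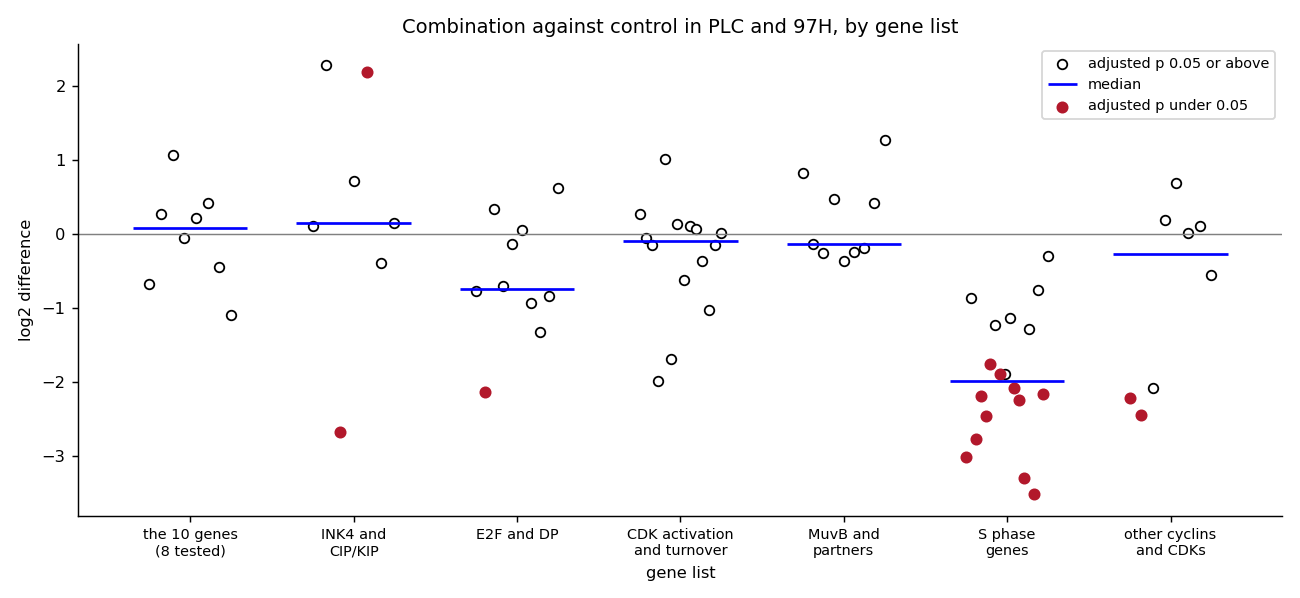
Difference of the combination from control (limma, log2(FPKM + 1) scale, PLC and 97H) for each tested gene of the 10 genes described here and of 6 lists of the pathway, with 1 point per gene, filled where the adjusted p is under 0.05, and a line at the list's median. The S phase list has 11 filled points and a median of -1.99, while the 10 genes described here have none and a median of 0.08.

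Some of the 10 genes overlap others in GENCODE 29, and no source used here says whether reads were counted by strand. TSPAN31 overlaps CDK4 from the opposite strand and had 2.94 to 14.3 FPKM. LPAR6 and RCBTB2 lie against RB1 with at most 1.48 and 0.598 FPKM, AKTIP against RBL2 with 0.990 to 7.82 FPKM, and PMEL against CDK2 with at most 1.78 FPKM. INTS8 and NDUFAF6 lie against CCNE2, which had 0.0318 to 2.12 FPKM. INTS8, at 2.26 to 6.35 FPKM, was above it in every library, while the range of NDUFAF6, 1.66 to 3.87 FPKM, overlapped that of CCNE2.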

How the data were processed

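Libraries were made from Trizol-extracted total RNA with a TruSeq RNA kit, per the labels' protocols. The submitters' processing notes name CASAVA 1.8.2, the aligner STAR 2.4.2g1, the build GRCh38 and Subread's featureCounts. The authors deposited FPKM values, and how these were made from counts is not given in the sources used here.

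Symbols turned into dates in 27 rows were restored from the gene ID beside them. Whole reads could not be recovered, as no ratio of low values between libraries was shared by over 1.04% of genes, so absolute depth is unknown. From 14033 to 15264 genes were above 0 FPKM per library.

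Two-sided tests came from limma 3.58.1 under R 4.3.3, with moderated variances that follow the mean, on log2(FPKM + 1), which understates changes of low genes, for the 10477 genes that averaged 1 FPKM or more, with Benjamini-Hochberg adjustment over them. Treatments were compared with cell line as a block, lines with treatment in the model. The CDK4/6 inhibitor against control and Huh7 against the other lines used all 10 libraries, the rest the 8 of PLC and 97H. A standard error pools the spread over the treatments in a fit. Pairing by line comes from the labels, and across genes the deviation of each line's control from the control mean went with that of its CDK4/6 inhibitor library, with r of 0.901 (Huh7), 0.665 (PLC) and 0.818 (97H). Nothing in the labels says that a line was cultured more than once per treatment. The fit was tested on simulated data with independent noise and no trend with G and C content, a simpler setting than these data.

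The genes and lists were chosen with earlier results of these data known. The genes named are all 10, for each the 3 most like it by r, and from each list those called for the combination against control or else the 3 with the smallest p. Gene positions and transcript composition come from GENCODE 29 (longest transcript, 99.6% of tested genes matched), promoters from RefSeq (GRCh38.p14). No promoter window of CCND1, CDK2 or CCNE2 was searched for words. Alternatives were a pseudocount of 0.1, no filter, quantile normalization, median ratio scaling, removal of G and C content and length trends, models without the block, all 10 libraries in the model, and leaving out each library.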

Additional observations from a re-analysis of the deposited data

Results flagged for a closer look

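CDK6 differed between the lines in direction: every drug library of PLC lay above its control and every drug library of 97H below. The median log2 difference of the 3 drug libraries was 1.21 in PLC (0.66 to 1.76) and -0.20 in 97H (-0.59 to -0.12). The difference between the lines was not tested, since each line has 1 library per treatment and the 3 differences share 1 control. After removal of G and C content and length trends the 3 PLC values were 0.25, 0.52 and 1.02 and the 97H values 0.06, 0.03 and -0.16, in the order combination, XPO1 inhibitor and CDK4/6 inhibitor, so 2 of the 3 values of 97H were then above 0. No group held enough libraries for a search for single outlying values.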

How the results depend on the processing

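None of the 8 tested genes passed in any comparison of treatments under any alternative, with or without the replicate block of cell line (0 called in all 6 comparisons without it), and RBL1 and CCNE2 were fitted only with no filter on low values. The calls of genes between lines moved more. For PLC against 97H, 4 genes passed with median ratio scaling and 4 with G and C content and length trends removed, against 2 as reported. With the trends removed the 4 included CDK4 (-0.55, limma adjusted p = 0.0135) and CCNE1 (-0.53, limma adjusted p = 0.0457). Without each library in turn 2 to 3 passed. CDK4 was the added gene, at -0.76 without the PLC control library and also without that of 97H. For Huh7 against PLC, 1 passed with no treatment in the model, and 1 to 3 without each library in turn. For Huh7 against 97H, 2 passed with no treatment in the model, and 1 to 4 without each library in turn. CDK4 passed for PLC against 97H with quantile normalization (limma adjusted p = 0.0131) and with all 10 libraries in the model (0.0470) as well, CDK6 for Huh7 against 97H with the trends removed (-0.86, limma adjusted p = 0.0276) and CDK6 for Huh7 against PLC without the PLC control library (-1.18, limma adjusted p = 0.0381). A lone library left in an arm was assumed to vary like the other groups.

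Some small differences turned round. With quantile normalization RB1 was at -0.050 for the CDK4/6 inhibitor against control and CDK4 at -0.017 for the departure from additivity, and for PLC against 97H CCND1 was at -0.10, CDK2 at -0.16, CDK6 at -0.087 and RBL2 at -0.16. With median ratio scaling CDK2 was at -0.018 for the XPO1 inhibitor against control, and for PLC against 97H CCND1 was at -0.23, CDK2 at -0.27, CDK6 at -0.10 and RBL2 at -0.25. With the trends removed CCND3 was at 0.064 for the combination against control, RBL2 at 0.039 for the combination against the XPO1 inhibitor, CDK4 at -0.051 for the departure from additivity, and CDK6 at -0.12 and RBL2 at -0.062 for PLC against 97H. A pseudocount of 0.1 put RBL2 at -0.012 for PLC against 97H. The cause was not tested.

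Without each library in turn the following ranges included both signs. For the CDK4/6 inhibitor against control they were -0.095 to 0.79 (CDK6), -0.24 to 0.52 (RB1), -0.21 to 0.57 (RBL2) and -0.057 to 0.38 (CCNE1). For the XPO1 inhibitor against control they were -0.11 to 0.31 (CDK2), -0.69 to 0.10 (CDK4), -0.25 to 1.26 (CDK6) and -0.22 to 1.21 (RBL2). For the combination against control they were -0.19 to 0.081 (CCND3), -0.49 to 1.03 (CDK6), -0.17 to 0.60 (RB1) and -0.29 to 1.14 (RBL2). For the combination against the CDK4/6 inhibitor they were -0.54 to 0.49 (CCND1), -1.12 to 0.49 (CDK6), -0.74 to 0.14 (RB1), -0.56 to 0.011 (CDK4) and -0.33 to 0.71 (RBL2), and against the XPO1 inhibitor -0.55 to 0.40 (RBL2) and -0.47 to 0.0027 (CDK6). For the departure from additivity they were -0.38 to 0.42 (CDK4) and -1.02 to 0.41 (RBL2). Between lines they were -0.19 to 0.33 (CCND1), -0.088 to 0.11 (CDK2), -0.30 to 0.48 (CDK6) and -0.26 to 0.36 (RBL2) for PLC against 97H, -0.35 to 0.42 (CCNE1) and -0.57 to 0.22 (RBL2) for Huh7 against PLC, and -0.42 to 0.31 (RBL2) for Huh7 against 97H.

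CCND1 (0.53 to 1.59), CDK2 (-1.29 to -0.91) and CDK4 (-1.08 to -0.29) kept their direction for the combination against control under every alternative run. Over all genes that comparison called 83, with 0 to 511 over the alternatives: 511 with the trends removed, 261 with all 10 libraries in the model, and 0 with no filter on low values or without the block. Depth is unknown, so no counting error can be given for RB1 in 97H or for RBL1, CCNE2 and CDK6.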
